A study of Mus musculus with 6 samples.

Results

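The 46 genes described here encode the machinery with which the endoplasmic reticulum (ER) takes in, folds, glycosylates and disposes of proteins, together with the sensors of the unfolded protein response (UPR). The members were fixed by name and fall into 6 groups, namely 15 ER chaperones and folding enzymes, 4 genes of UPR sensing, 7 of ER-associated degradation, 11 of the translocon, the TRAP complex and the signal recognition particle, 4 of the signal peptidase and 5 of the oligosaccharyltransferase. All 46 had a value in every library, of 25814 genes that did, and 45 had a mean of at least 1 FPKM (FPKM being fragment numbers scaled to the length of the transcript and the size of the library), of 10362 such genes in all.

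Expression was measured by RNA sequencing of 6 libraries of sorted splenic T follicular helper (Tfh) cells, 3 per group. The conditional knockout mice were FoxP3GFP/DTR CD4Cre/+Bob1fl/fl (labelled Bob1KO), and the control mice were FoxP3GFP/DTR CD4+/+Bob1fl/fl (labelled WT), so that both carried the FoxP3 reporter allele and floxed Bob1 alleles and only the knockout carried Cre. Cre under the Cd4 promoter acts wherever that promoter is active, including in the thymus, and not in Tfh cells alone. All mice received 100 µg of NP-CGG in complete Freund's adjuvant intraperitoneally, and day 7 spleens were sorted for cells lacking FoxP3-GFP and positive for CD3, CD4, CXCR5 and PD-1. Libraries were made from 0.7 ng of total RNA. The methods describe separate experiments, each with several mice, so that a library stands for pooled animals. The p-values measure the spread between libraries. In it, differences between pools and between the transcript assemblies made for each library cannot be told apart.

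A secretory protein is led to the ER by the signal recognition particle, passes the membrane through the Sec61 channel, loses its signal peptide to the signal peptidase and receives sugar chains from the oligosaccharyltransferase. Chaperones such as BiP and the protein disulfide isomerases fold it, and a protein that fails to fold is carried back to the cytosol and degraded by the proteasome. When unfolded proteins accumulate, the membrane sensors IRE1, PERK and ATF6 raise chaperone transcription and lower the protein load, with IRE1 splicing the messenger RNA of the transcription factor XBP1. In lymphocytes the pathway is best known from plasma cells, which secrete antibody in bulk, while Tfh cells secrete cytokines such as IL-21.

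Promoters of some of these genes hold the ER stress response element (ERSE), which ATF6 and XBP1 bind together with NF-Y. These sequences are shown because several chaperone genes share the element, while others lack it. RefSeq promoter windows of the GRCm38.p6 build, 250 bases before to 50 bases after the annotated start, were held for 37 of the 46 members. ERSE, which is CCAAT, 9 bases of any kind and CCACG, was searched on both strands and was found in 8 of these 37 (21.6%), against 37 of 27025 genes with a window (0.137%). The variant ERSE-II, which is ATTGG, 1 base of any kind and CCACG, was found in 2 of 37 members (5.41%), against 0.0444% of genes. The UPR element TGACGTGG was found in 0 of 37 members and 0.714% of genes. The octamer ATGCAAAT, the motif to which Oct factors recruit Bob1, was found in 1 of 37 members (2.7%), against 1.97% of genes. These matches are letters in a window and not measured binding. ERSE and ERSE-II were already known from promoters of such genes. Their excess among the members is thus a description and not a finding of these data. In the stretches below, each on the strand of its gene, capitals mark the ERSE or ERSE-II match, which reads in reverse in Calr, Creld2 and the second stretch of Hsp90b1, and position 0 is the annotated start.
Hspa5 (chr2:34772005-34772063, + strand, match from -65): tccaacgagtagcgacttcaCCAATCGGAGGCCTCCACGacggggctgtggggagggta
Hsp90b1 (chr10:86705618-86705676, - strand, match from -212): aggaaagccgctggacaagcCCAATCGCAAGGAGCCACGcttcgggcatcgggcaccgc
Hsp90b1 (chr10:86705513-86705571, - strand, match from -107): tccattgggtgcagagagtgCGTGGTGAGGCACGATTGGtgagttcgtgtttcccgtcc
Calr (chr8:84847055-84847113, - strand, match from -162): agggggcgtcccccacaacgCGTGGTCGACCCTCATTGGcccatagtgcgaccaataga
Canx (chr11:50325780-50325838, - strand, match from -145): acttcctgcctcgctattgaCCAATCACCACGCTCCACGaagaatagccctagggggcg
Pdia6 (chr12:17266471-17266529, + strand, match from -98): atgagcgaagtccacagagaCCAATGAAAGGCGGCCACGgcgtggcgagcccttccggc
Dnajc3 (chr14:118937807-118937865, + strand, match from -105): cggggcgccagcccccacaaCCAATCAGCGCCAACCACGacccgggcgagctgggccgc
Creld2 (chr15:88819500-88819558, + strand, match from -126): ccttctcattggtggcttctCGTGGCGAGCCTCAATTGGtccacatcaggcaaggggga
Syvn1 (chr19:6046512-6046570, + strand, match from -44): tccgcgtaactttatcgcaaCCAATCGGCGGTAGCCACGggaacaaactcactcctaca
Herpud1 (chr8:94386357-94386407, + strand, match from -52): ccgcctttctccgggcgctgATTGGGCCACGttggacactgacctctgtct
Dnajb11 (chr16:22857843-22857871, + strand, match from 7): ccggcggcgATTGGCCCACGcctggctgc

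**Figure D1:**
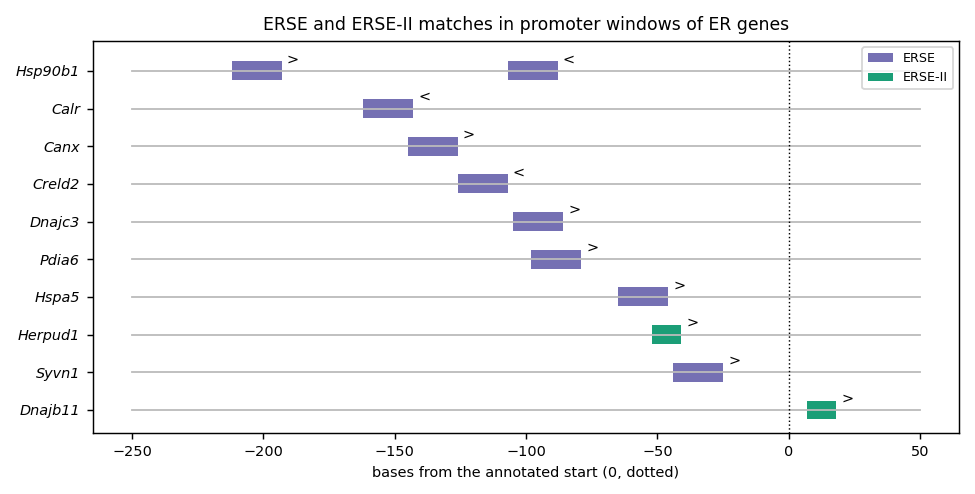
Position of ERSE and ERSE-II matches (boxes) along the promoter windows of the 10 members that hold one, in bases from the annotated start at 0; the sign above a box gives its orientation relative to the gene. In 9 of the 10 members every match lies before the start, from -212 in Hsp90b1 to -44 in Syvn1, while in Dnajb11 it begins at 7.

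The target gene Pou2af1, which encodes Bob1, was listed at 1.16, 0.237 and 0.317 FPKM in Bob1KO and at 46.1, 32.5 and 34.4 FPKM in WT, so that no library went against its label (log2 fold change -4.65, SE 0.256, adjusted p = 0.00345 by limma over 10362 genes). The 8 markers of Tfh cells were all above 0 in every library and summed to 2801, 2102 and 2280 FPKM in Bob1KO and to 2821, 2070 and 1994 FPKM in WT. The general T cell gene Cd3e had the highest level (642 to 929 FPKM), while Pdcd1, which encodes PD-1, varied more (275 to 607 FPKM), and Cd4 lay wholly higher in Bob1KO (unadjusted p = 0.0258, adjusted p = 0.921). The 7 B cell markers summed to at most 8.35 FPKM in any library. The 7 plasma cell markers with a value summed to 28.8, 10.4 and 16.7 FPKM in Bob1KO and 14.7, 10.02 and 9.92 FPKM in WT, of which Igj made 16.8 FPKM in Bob1KO replicate 1. Irf4 of that list lay wholly higher in Bob1KO (by limma unadjusted p = 0.048, adjusted p = 0.926), as did 5.83% of all genes. The groups overlapped for the other plasma cell markers. The 6 myeloid markers with a value, led by S100a8, varied most, with sums of 3603, 63.7 and 997 FPKM in Bob1KO and 525, 422 and 735 FPKM in WT. Read totals were not in the files. Depth was estimated from the commonest ratio of low FPKM values in rows shared with WT replicate 1. The estimates were 1.05, 1.32 and 0.911 times the depth of WT replicate 1 in the Bob1KO libraries. They were 1.04 and 1.15 times in WT replicates 2 and 3.

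The ER genes were present at high levels in Tfh cells of both groups. The 46 members summed to 5047, 4333 and 4434 FPKM in Bob1KO and to 5138, 4728 and 4924 FPKM in WT, which was 0.952% to 1.11% of the FPKM of all genes with a value. These sums overlapped between the groups. The mean over the 6 libraries was at least 100 FPKM for 18 members, between 10 and 100 FPKM for 23 and below 10 FPKM for 5. The lowest were Srp54a, Ern1, Hyou1, Eif2ak3 and Atf6, so that the 3 UPR sensors were all among the 5 least abundant members, while the chaperone Hspa5 and the oligosaccharyltransferase subunit Dad1 were the most abundant.

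**Figure D2:**
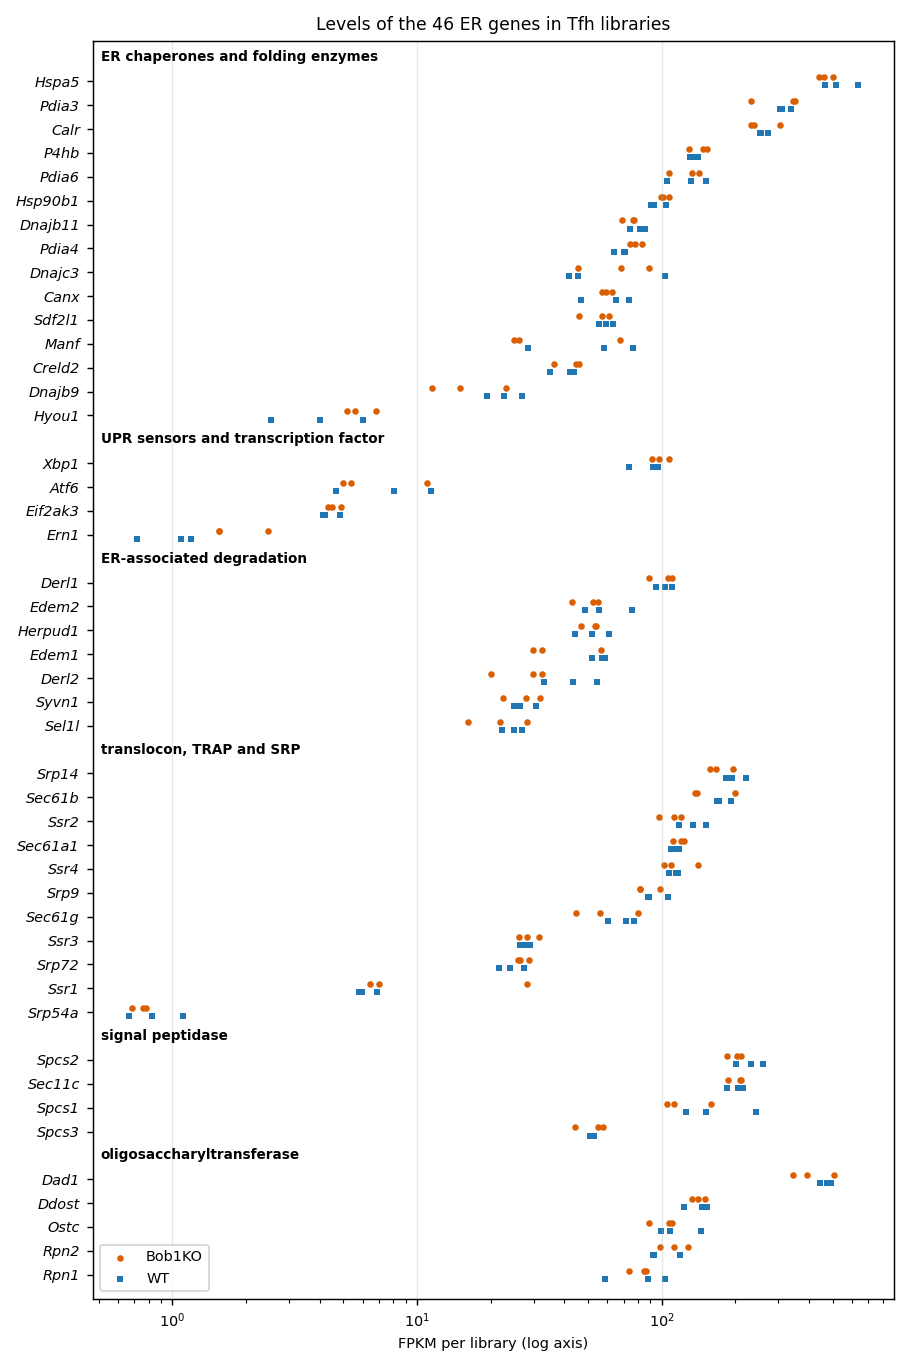
FPKM of each of the 46 ER genes in each library, on a log axis, by group of genes and ordered by mean level within it; circles are the 3 Bob1KO libraries and squares the 3 WT libraries. Levels run from under 1 FPKM for Srp54a to 634 FPKM for Hspa5, and the symbols of the 2 groups interleave for most genes.

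No ER gene passed the test between Bob1KO and WT. Of the 45 members tested with limma, 0 had an adjusted p below 0.05 in either direction, against 2 of all 10362 genes (0.0193%). These were Pou2af1, the 1 gene called lower in Bob1KO (0.00965%), and Pcsk1, a proprotein convertase and the 1 gene called higher (0.00965%). At an unadjusted p below 0.05, 0 members were higher in Bob1KO (3.18% of all genes) and 1 was lower (2.22% of members, against 2.15% of all genes), the degradation gene Derl2, where 5.33% of all genes reached it in either direction. The median log2 fold change was -0.02 over the 45 members and -0.00 over all genes, with 28 members below 0 and 17 above. The library values of Bob1KO lay wholly above those of WT in 2 members (4.44%, against 5.83% of all genes), Ern1 and Pdia4, and wholly below in 1 (2.22%, against 4.83%), Derl2.

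With the replicate number as a block, the count of all genes passing fell to 1 (Pou2af1; Pcsk1 had an adjusted p of 0.217) and that of members remained 0, where 0.00965% of all genes passed. In that fit 2 members reached an unadjusted p below 0.05, both lower in Bob1KO (Spcs1 and Ssr2), against 2.36% of all genes lower and 6.22% in either direction.

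The precision of the comparison differed between members. The 95% interval of the log2 fold change lay within 1 of 0, which is a 2-fold change either way, for 35 of the 45 members (77.8%, against 84.5% of all genes) and within 0.5 of 0 for 23 (51.1%, against 38.2%). Sec61a1, the pore-forming subunit of the translocon, had the narrowest spread, with a coefficient of variation of 5.0% over the 6 libraries. The 10 members with an interval reaching past 1 either way were Dnajc3, Manf, Dnajb9, Hyou1, Ern1, Atf6, Edem1, Derl2, Ssr1 and Spcs1. For these a 2-fold difference was not excluded at this number of libraries.

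**Figure D3:**
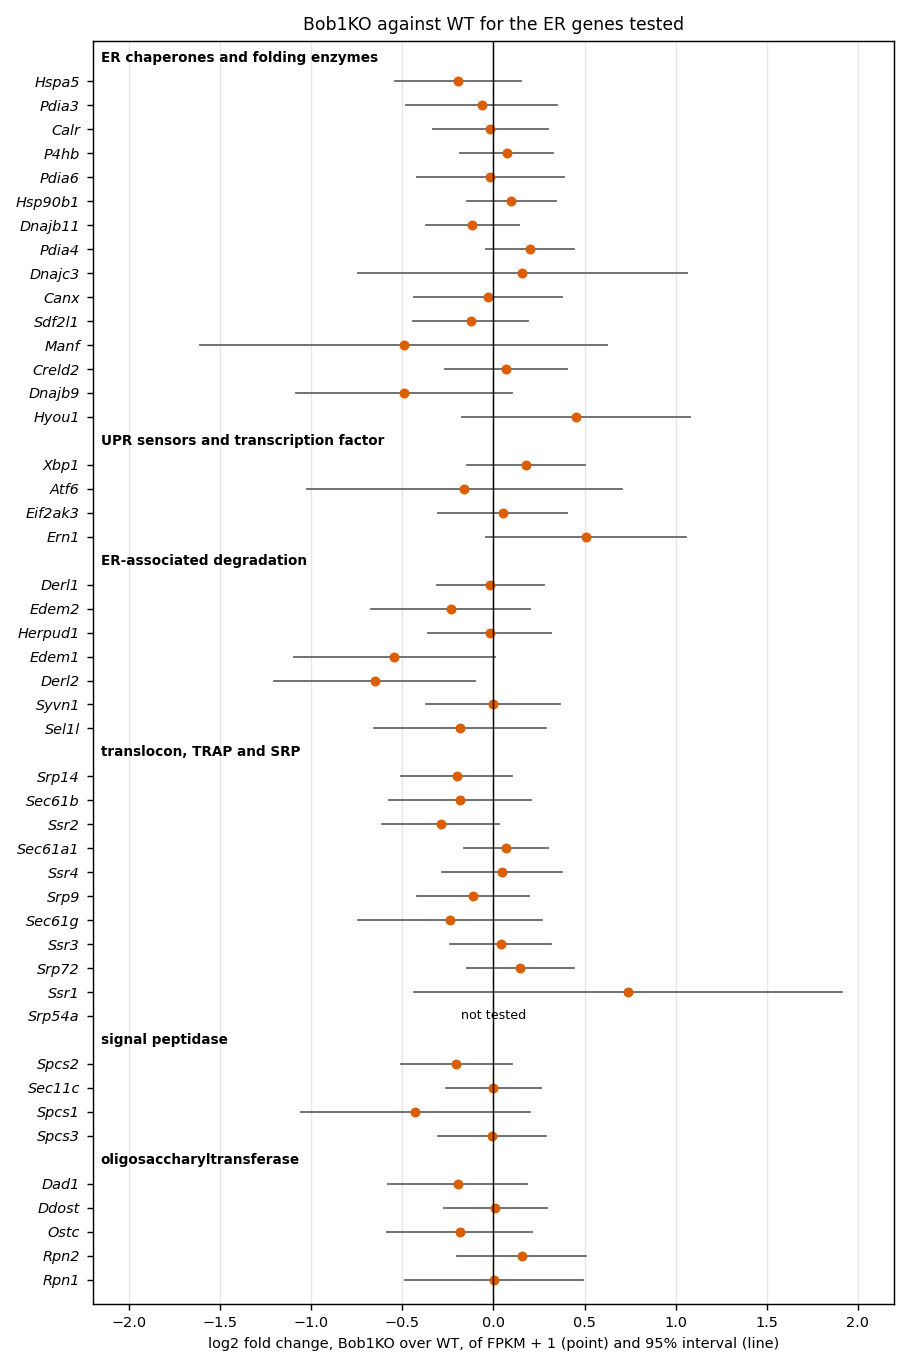
The log2 fold change of Bob1KO over WT on FPKM + 1 (point) and its 95% interval (line) for the 45 ER genes tested, by group of genes. The interval of Derl2 alone lies wholly to one side of 0, from -1.21 to -0.10 before adjustment for the number of genes, and those of Ssr1 and Manf are among the widest.

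Among the chaperones and folding enzymes the most abundant gene was Hspa5, which encodes BiP, the ER member of the Hsp70 family that also holds the sensors inactive. It was measured at 459, 502 and 438 FPKM in Bob1KO and at 634, 464 and 514 FPKM in WT. The groups overlapped, with WT replicate 1 apart at the top, and the log2 fold change was -0.19 (SE 0.147, 95% interval -0.54 to 0.15, adjusted p = 0.947) and -0.07 without that library. The lectin chaperones Calr (calreticulin) and Canx (calnexin), which retain glycoproteins until they fold, had log2 fold changes of -0.02 and -0.03. For Hsp90b1, the ER member of the Hsp90 family, the value was 0.10 with an interval of -0.15 to 0.34.

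Pdia4, a protein disulfide isomerase at chr6:47796141-47813512, was the chaperone gene with the smallest p. Its level was 83.4, 74.5 and 78.05 FPKM in Bob1KO and 70.2, 70.9 and 63.7 FPKM in WT. All 3 Bob1KO libraries were above all 3 WT libraries, by a small amount (78.6 ± 4.47 against 68.3 ± 3.95 FPKM, SD, n = 3 each; log2 fold change 0.20, SE 0.103, unadjusted p = 0.0901, adjusted p = 0.944). The other 3 disulfide isomerase genes did not share this pattern, since Pdia3, Pdia6 and P4hb had log2 fold changes of -0.06, -0.02 and 0.07 and overlapping groups.

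Dnajb9, a J-domain co-chaperone of BiP, was measured at 14.98, 23.0 and 11.5 FPKM in Bob1KO and at 26.8, 22.7 and 19.3 FPKM in WT. Bob1KO replicates 1 and 3 were below every WT library and replicate 2 was not (log2 fold change -0.49, SE 0.251, unadjusted p = 0.0902, adjusted p = 0.944). The value was -0.75 without Bob1KO replicate 2 and -0.28 without Bob1KO replicate 3. Hyou1, a large Hsp70-like nucleotide exchange factor of BiP, had 6.83, 5.59 and 5.19 FPKM in Bob1KO and 4.02, 6.01 and 2.53 FPKM in WT. Here WT replicate 2 lay within the Bob1KO range, and the log2 fold change was 0.45 (SE 0.265, adjusted p = 0.947), which fell to 0.21 without WT replicate 3. The remaining co-chaperones and secreted ER stress proteins, Dnajb11, Dnajc3, Sdf2l1, Creld2 and Manf, had log2 fold changes between -0.49 and 0.16.

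The 10 members with an ERSE or ERSE-II in the promoter window, 8 of them chaperones or folding enzymes and the others Syvn1 and Herpud1, had log2 fold changes between -0.19 and 0.16. Their median was -0.02, with 3 above 0 and 7 below. The 26 tested members whose window held neither motif had a median of -0.09 and a wider range, -0.65 to 0.74.

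Of the UPR sensors, Ern1, which encodes the kinase and endoribonuclease IRE1 and lies at chr11:106397620-106487796, was the least abundant. It was measured at 1.55, 2.47 and 1.55 FPKM in Bob1KO and at 1.197, 1.08 and 0.715 FPKM in WT. The groups did not overlap (1.86 ± 0.531 against 0.998 ± 0.252 FPKM, SD, n = 3 each), but the log2 fold change of 0.51 (SE 0.232, 95% interval -0.04 to 1.06) had an unadjusted p of 0.0646 and an adjusted p of 0.936. At this low level the limits that Cufflinks gave to single libraries were wide, 1.76 to 3.18 FPKM for the highest library and 0.550 to 0.880 FPKM for the lowest. The pseudocount also weighs at this level, and the log2 fold change was 0.83 with a pseudocount of 0.1 and 0.19 with one of 5.

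Eif2ak3, which encodes the kinase PERK, was even across libraries, at 4.51, 4.91 and 4.32 FPKM in Bob1KO and 4.12, 4.83 and 4.22 FPKM in WT (log2 fold change 0.05, 95% interval -0.30 to 0.41). Atf6, the sensor that becomes a transcription factor after cleavage in the Golgi, was uneven within both groups, at 4.96, 11.0 and 5.38 FPKM in Bob1KO and 11.4, 8.03 and 4.68 FPKM in WT (log2 fold change -0.16, SE 0.366). Xbp1, the transcription factor downstream of IRE1, was above each sensor in every library, at 107, 91.3 and 97.3 FPKM in Bob1KO and 96.7, 73.5 and 92.4 FPKM in WT. Its groups overlapped (log2 fold change 0.18, SE 0.137, adjusted p = 0.947), and the value was 0.06 without WT replicate 2 and 0.12 without Bob1KO replicate 1. The FPKM of Xbp1 does not separate the spliced from the unspliced messenger RNA, so the activity of IRE1 was not measured.

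The 7 genes of ER-associated degradation all had log2 fold changes below 0, from -0.65 to -0.00 with a median of -0.18, where 50.7% of all genes were below 0. None of the 7 passed the adjusted test. In the authors' values, 1 per group on a common assembly, Sel1l and Syvn1 were instead higher in Bob1KO. These were 31.1 FPKM in Bob1KO and 29.8 FPKM in WT for Sel1l, and 33.2 FPKM in Bob1KO and 32.2 FPKM in WT for Syvn1. Derl2, a derlin of the retrotranslocation machinery at chr11:71007440-71019841, was the furthest. It was measured at 32.5, 29.7 and 20.1 FPKM in Bob1KO and at 33.2, 43.6 and 54.3 FPKM in WT. The groups did not overlap, though the highest Bob1KO library and the lowest WT library nearly met (log2 fold change -0.65, SE 0.234, unadjusted p = 0.0267, adjusted p = 0.921). Without Bob1KO replicate 3 the log2 fold change was -0.45, without WT replicate 3 it was -0.48, and the unadjusted p was no longer below 0.05 in either case. The locus overlaps that of Mis12, and the Cufflinks row assigned to Derl2 had ends that differed between libraries, with lengths of 11819 to 12429 bases.

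Edem1, a mannosidase-like protein that marks misfolded glycoproteins, was measured at 32.5, 56.3 and 29.8 FPKM in Bob1KO and at 57.1, 51.8 and 58.7 FPKM in WT. Bob1KO replicate 2 was at the WT level while the other Bob1KO libraries were well below it (log2 fold change -0.54, SE 0.233, unadjusted p = 0.0519, adjusted p = 0.926), and without that library the value was -0.82 with an adjusted p of 0.226. Its relative Edem2 had 52.5, 54.8 and 42.8 FPKM in Bob1KO and 55.3, 75.4 and 48.6 FPKM in WT, with overlap (log2 fold change -0.24, or -0.06 without WT replicate 2 and -0.13 without Bob1KO replicate 3). Sel1l and Syvn1, which form the core of the HRD1 ubiquitin ligase complex, had log2 fold changes of -0.18 and -0.00. Derl1 and Herpud1, a stress-induced partner of the ligase, both had -0.02. In the library values Derl1 was the most abundant of the group, at 102 ± 11.5 FPKM in Bob1KO and 102 ± 7.67 FPKM in WT (SD, n = 3 each). That level is a sum of 2 rows per library. In the authors' group values Derl1 was at 33.9 FPKM in Bob1KO and 35.8 FPKM in WT, below Edem2 and Herpud1.

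In the group of the translocon, TRAP and signal recognition particle, Srp14 and Sec61b were the most abundant. Srp14, which with Srp9 forms the part of the particle that halts elongation, was measured at 196, 166 and 158 FPKM in Bob1KO and at 222, 183 and 194 FPKM in WT, with overlap (log2 fold change -0.20, SE 0.13, adjusted p = 0.947). The 3 subunits of the Sec61 channel did not move as one, with log2 fold changes of 0.07 for Sec61a1, -0.18 for Sec61b and -0.24 for Sec61g. The intervals of all 3 included 0. Srp72, a protein of the particle's core, had 26.3, 28.6 and 25.9 FPKM in Bob1KO and 24.0, 27.3 and 21.7 FPKM in WT (log2 fold change 0.15, SE 0.124).

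The TRAP complex, which assists translocation beside the channel, has 4 subunits. Ssr2 was measured at 119.9, 97.1 and 112 FPKM in Bob1KO and at 134, 118 and 152 FPKM in WT. Bob1KO was lower in 3 of 3 pairs with the same replicate number, although Bob1KO replicate 1 lay above WT replicate 2 (log2 fold change -0.29, SE 0.136, unadjusted p = 0.0692; with the replicate block SE 0.11, unadjusted p = 0.0456 and adjusted p = 0.795). Ssr3 and Ssr4 had log2 fold changes of 0.04 each. Ssr1 was at 7.00, 6.44 and 28.1 FPKM in Bob1KO and at 5.97, 6.86 and 5.81 FPKM in WT, so that its log2 fold change of 0.74, the largest among members, came from 1 library and was 0.10 without Bob1KO replicate 3. Srp54a, the GTPase that binds the signal peptide, was at 0.782, 0.761 and 0.682 FPKM in Bob1KO and 0.666, 0.825 and 1.11 FPKM in WT and was not tested. Reads may be shared with near-identical copies of this gene, which makes its level uncertain.

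The 4 signal peptidase genes had log2 fold changes from -0.43 to -0.00. Spcs1, an accessory subunit, was measured at 159, 113 and 105 FPKM in Bob1KO and at 242, 151 and 126 FPKM in WT. The groups overlapped (log2 fold change -0.43, SE 0.266, unadjusted p = 0.15, adjusted p = 0.947). Each Bob1KO library was nonetheless below the WT library of the same number, and with the replicate block the SE was 0.118, the unadjusted p 0.0143 and the adjusted p 0.678. Without WT replicate 1 the log2 fold change was -0.16. Spcs2 had 211, 185 and 203 FPKM in Bob1KO and 233, 200.5 and 261 FPKM in WT, with overlap (log2 fold change -0.20, SE 0.13). The catalytic subunit Sec11c, at 208, 210.4 and 186 FPKM in Bob1KO and 185, 215 and 205 FPKM in WT, and the subunit Spcs3, at 55.0, 44.1 and 57.4 FPKM in Bob1KO and 52.4, 51.1 and 52.8 FPKM in WT, had values within 0.01 of 0 and intervals within 0.5 of it.

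The oligosaccharyltransferase genes were the least dispersed in fold change, from -0.20 to 0.16, and all 5 intervals lay within 1 of 0. Dad1, a small subunit named for the cell death that follows its loss, was measured at 509, 393 and 343 FPKM in Bob1KO and at 442, 476 and 490.3 FPKM in WT. Bob1KO held both the highest and the lowest library (log2 fold change -0.20, SE 0.162, adjusted p = 0.947). Ostc had 107, 88.8 and 111 FPKM in Bob1KO and 108, 99.2 and 145 FPKM in WT (log2 fold change -0.19). Rpn2 and Ddost, 2 larger subunits, had log2 fold changes of 0.16 and 0.01, and Rpn1 had 0.00.

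Libraries differed among themselves more than the groups did. The median deviation of the 45 tested members from their mean over the 6 libraries, on the log2 scale, was 0.10, -0.12 and 0.00 in Bob1KO and 0.03, -0.02 and 0.02 in WT, against 0.02, -0.04 and 0.01 in Bob1KO and 0.01, -0.06 and 0.06 in WT for all genes tested. Bob1KO replicates 1 and 2 thus held the highest and the lowest value. Bob1KO replicate 1 was also highest in the summed plasma cell and myeloid markers. Bob1KO replicate 2 was the lowest in myeloid markers and the deepest library by the estimate from low FPKM values. The part of depth or of such markers in these deviations was not tested. Without Bob1KO replicate 1 the median log2 fold change of the members was -0.08, and without replicate 2 it was 0.01. Within the degradation group the deviations were 0.06, -0.14 and -0.26 in Bob1KO and 0.11, 0.11 and 0.01 in WT, with overlap through Bob1KO replicate 1. Between libraries of the same number, these deviations were lower in Bob1KO in 3 of 3 pairs. The same held for the summed FPKM of the degradation group, the chaperones, the signal peptidase and all 46 members. The UPR group was higher in Bob1KO in 3 of 3 pairs (sums of 118.4, 109.7 and 108.5 FPKM in Bob1KO and 113.5, 87.4 and 102 FPKM in WT). Most of that sum was Xbp1 in every library. The translocon and oligosaccharyltransferase sums went in both directions. How often other genes went the same way in 3 of 3 pairs was not counted. As a share of the FPKM of all genes with a value, the 46 members were lower in Bob1KO in 2 of 3 pairs. On that scale the chaperones were higher in Bob1KO replicate 3 than in WT replicate 3 (0.41% against 0.374%). The UPR group was slightly lower in Bob1KO replicate 1 than in WT replicate 1 (0.0243% against 0.0244%). The degradation and signal peptidase shares stayed lower in Bob1KO in 3 of 3 pairs.

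**Figure D4:**
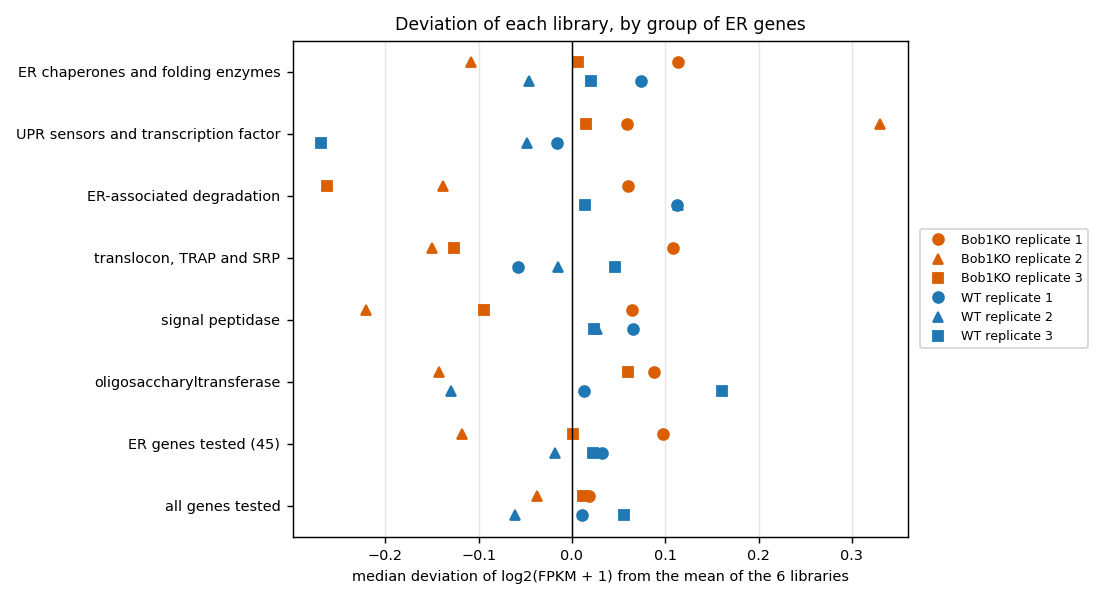
Median deviation of log2(FPKM + 1) from the mean of the 6 libraries, for each library, by group of ER genes and for all genes tested; Bob1KO libraries are drawn above WT libraries in each row. For the 45 ER genes together Bob1KO replicate 1 (0.10) and replicate 2 (-0.12) lie at the extremes and the 3 WT libraries lie between them.

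Some members stood at separate levels in libraries of the same group. The FPKM of each library rest on transcripts assembled in that library alone, whose part in this was not tested. Manf, a secreted ER stress protein, was at 67.5, 25.0 and 26.0 FPKM in Bob1KO and at 28.3, 76.2 and 58.1 FPKM in WT, with no library between 28.3 and 58.1. Dnajc3, which inhibits PERK, was at 45.5, 89.0 and 68.0 FPKM in Bob1KO and at 103, 45.6 and 41.7 FPKM in WT. The limits that Cufflinks gave to single values had a median half-width of 5.16% over all members and libraries, and cover neither the spread between pools of mice nor that between assemblies. On the authors' common assembly, which gives 1 value per group with no spread, Manf had 33.2 FPKM in Bob1KO and 33.3 FPKM in WT, and Dnajc3 had 54.5 FPKM in Bob1KO and 56.3 FPKM in WT.

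The same common assembly gave the authors' group values of 32.7 FPKM in Bob1KO and 37.0 FPKM in WT for Derl2, 1.23 FPKM in Bob1KO and 1.11 FPKM in WT for Ern1, and 33.3 FPKM in Bob1KO and 34.4 FPKM in WT for Edem1. For these 3 genes the groups were closer to each other than the library means were. For Dnajb9 they were 20.4 FPKM in Bob1KO and 28.4 FPKM in WT, and for Spcs1 205 FPKM in Bob1KO and 241 FPKM in WT. Pdia4 was not named in that table and was located by its RefSeq position. Of the 45 members named there, 42 had a library mean within 1.5 times of the authors' group values, and the exceptions were Derl1 (2.93 times, with more than 1 row summed), Spcs2 (1.77 times) and Atf6 (0.65 times). The loci of 17 of the 46 members overlap another RefSeq gene, among them Derl2 (Mis12), Spcs1 (Glt8d1) and Hspa5 (Rabepk), and reads of such genes may be mixed.

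**Figure D5:**
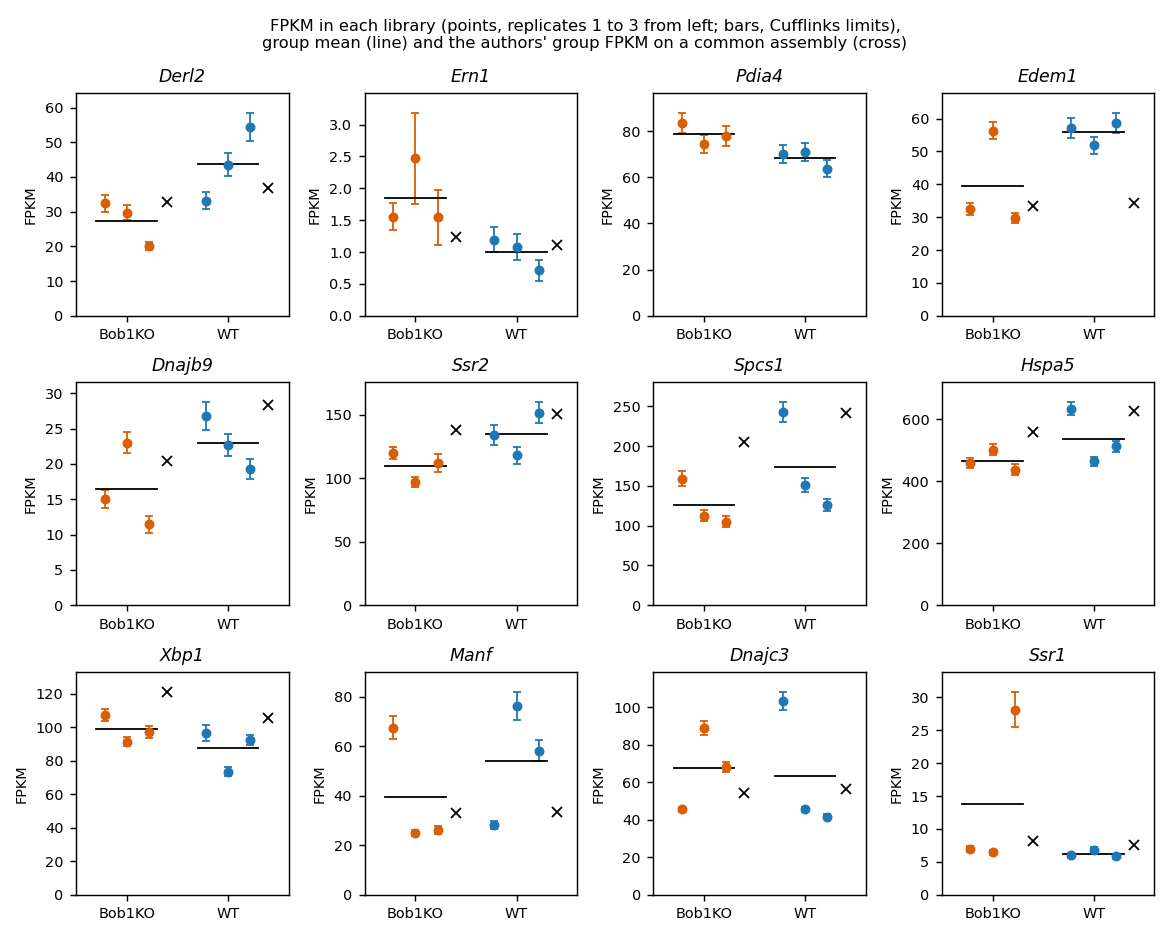
FPKM in each library (points, replicates 1 to 3 from left to right in each group, bars for the limits given by Cufflinks), the group mean (line) and the authors' group FPKM on a common assembly (cross) for 12 ER genes, with Bob1KO left of WT. The 2 groups do not overlap for Derl2, Ern1 and Pdia4, while Manf and Dnajc3 vary widely within both groups and Ssr1 is high in Bob1KO replicate 3 alone.

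Genes of the same pathways outside the 46 were tested as well, with 0 passing the adjusted test by limma in any of 4 lists. Of 24 tested genes of other UPR and stress responses, 2 were lower at an unadjusted p below 0.05 and 0 higher (8.33% in all, against 2.15% of all genes lower and 5.33% in either direction). Of 13 tested genes of other ER-associated degradation, 19 of other translocation and protein modification and 20 of ER to Golgi transport, 0 reached an unadjusted p below 0.05, where 5.33% of all genes did. The other genes of ER-associated degradation had a median log2 fold change of 0.09, with 7 above 0 and 6 below, beside a median of -0.18 and 7 of 7 below 0 for the members of that group, a difference that was not tested. The medians of the 4 lists lay between -0.02 and 0.09 on the log2 scale. Of the 2 genes below 0.05, the first was Serp1 (also called RAMP4), a small membrane protein bound to the Sec61 channel, which was measured at 123, 111 and 122 FPKM in Bob1KO and at 182, 152 and 179.8 FPKM in WT. All Bob1KO libraries were below all WT libraries (119 ± 7.01 against 171 ± 16.7 FPKM, SD, n = 3 each; log2 fold change -0.52, SE 0.115, unadjusted p = 0.00272, adjusted p = 0.473), and the authors' group values were 135 FPKM in Bob1KO and 197 FPKM in WT. The log2 fold change of Serp1 stayed between -0.60 and -0.47 when any 1 library was left out. The second was Nucb2, a calcium-binding protein of the secretory pathway, at 6.33, 4.20 and 5.50 FPKM in Bob1KO and 7.63, 7.09 and 7.98 FPKM in WT (log2 fold change -0.45, SE 0.172, adjusted p = 0.921). In bulk samples fewer cells with a transcript and less of it per cell cannot be told apart.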

How the data were processed

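Total RNA of sorted Tfh cells was sequenced after SMART-Seq v4 amplification. Per the labels and the methods, the authors used cutadapt 1.2.1 for trimming, TopHat2 2.0.13 for alignment to the mm10 build (GRCm38), and Cufflinks 2.2.1 for the deposited FPKM values, on transcripts assembled in each library. For the gene annotation, no version was given in the sources used here. A further deposited table held 1 FPKM per group on a common assembly beside the authors' own fold change, test score, p-value and q-value. Only its gene names, transcript identifiers and group FPKM were used.

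Rows named by the assembly held 94.07% to 95.92% of the FPKM of a library, so gene names were attached by position. Each row was given to the gene (RefSeq transcripts on GENCODE spans, or the RefSeq GRCm38.p6 gene) whose span overlapped it best, if the overlap was 0.5 or more of the union of both. A gene left without a row took a row that covered 0.95 or more of it. Rows were summed per gene, and 91.92% to 92.47% of the FPKM was assigned. The 10362 genes whose FPKM averaged 1 or more entered a two-sided limma test (version 3.58.1, R 4.3.3) of log2(FPKM + 1), with a variance trend, Benjamini-Hochberg adjustment and a threshold of 0.05. Fold changes on this scale understate those of low genes. The test was checked on simulated data. An exact permutation test of 3 against 3 cannot go below 0.1 and was not used.

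Same-numbered libraries of the groups deviated together (correlations of deviations 0.11, 0.14 and 0.11). Other pairs had -0.09 to -0.026. Deviations were taken from the mean of each group, so these negative values follow from the positive ones and add no separate contrast. The pairing is one that the labels give by number alone, and the replicate block was fitted as an alternative. Other alternatives were the pseudocount, the filter, the scaling, the variance trend, the matching and leaving libraries out. Any member could be named. Values in every library were given for the most abundant member of each group, the 4 with the smallest p, the UPR genes and those whose groups did not overlap. Exceptions were Derl1, Sel1l, Rpn2 and Ddost, which were given without values for each library. The members and lists were chosen with earlier results of these data known. Promoter windows came from RefSeq, and protein sequences were not used here.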

Additional observations from a re-analysis of the deposited data

How the results depend on the processing

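The count of ER genes passing the adjusted test was 0 in all 17 alternatives, and the median log2 fold change of the members stayed between -0.08 and 0.01 in all of them, which is within the spread between libraries (SD 0.0784). It was 0.01 with quantile normalization and 0.01 without both replicate 2 libraries, against -0.02 as reported. The count of all genes passing, 2 as reported, was 1 with a pseudocount of 0.1, 1 with a minimum mean of 5 FPKM, 1 with the replicate block and 8 without both replicate 2 libraries, and between 1 and 7 with 1 library left out; Pou2af1 was among them each time. The block changed no call among the members. The count of members at an unadjusted p below 0.05 lay between 0 and 4.

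Among the 27 genes followed, signs turned for Ddost, Eif2ak3, Spcs3, Sec11c, Sel1l and Atf6, none of which passed the test. Equal library medians gave -0.00375 for Ddost. Quantile normalization gave -0.0177 for Eif2ak3, 0.0208 for Spcs3 and 0.0389 for Sec11c. Leaving out both replicate 2 libraries gave 0.0213 for Sel1l, 0.0937 for Spcs3, 0.0145 for Sec11c and -0.0821 for Ddost. With 1 library left out the ranges were -0.481 to 0.104 for Atf6, -0.37 to 0.0105 for Sel1l, -0.0785 to 0.107 for Spcs3, -0.0605 to 0.055 for Sec11c and -0.0843 to 0.073 for Ddost. The cause was not tested. In all, 18 of 457 values changed sign. Leaving out 1 library also moved the value by over 1.5 times for Dad1 (-0.352 to -0.069), Ostc (-0.297 to -0.026), Spcs2 (-0.302 to -0.114), Srp14 (-0.293 to -0.124), Srp72 (0.0695 to 0.231), Rpn2 (0.0642 to 0.276) and Eif2ak3 (0.00881 to 0.109). Fragment counts could not be recovered from FPKM, so no count model was run, and no interval for counting error is given. With 3 libraries a group, a change of 2-fold or more was within the 95% interval of 10 members, so that 0 calls do not show that the groups are alike.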
